A study of Mus musculus with 15 samples.

Results

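The immediate-early and activity-regulated genes examined here are a list of 40 named mouse genes. No measured value enters the list, but earlier results of these data were known when it was drawn up. All 40 were found among the 23132 genes kept from the count table. They were read in 15 RNA sequencing libraries of C57BL/6 foetuses, each from an individual mouse and each assigned to a litter. Libraries of the E15.5 cerebral cortex came from 3 *Phf6*+/Y controls and 5 *Phf6*-/Y foetuses of litters 1 to 3, in which exons 4 and 5 of the chromatin-associated gene *Phf6* were deleted in the germline. Libraries of E16.5 cortical neurons came from 3 *Phf6*+/Y;Nes-creTg/+ controls of litters 4 to 6 and 4 *Phf6*lox/Y;Nes-creTg/+ foetuses of litters 4 to 7, so that controls and deleted cultures both carried the Nes-cre transgene, which drives Cre recombinase in neural progenitors and the cells that arise from them. The neurons had been dissociated with proteases and kept in culture for a day to enrich for neuronal cells, whereas the cortices were used directly after dissection. Litter 7 held no control, so its single deleted culture does not inform the genotype effect where litter is a term. Tissue, stage, dissociation, culture, the Nes-cre transgene and the litters all changed together between cortex and neurons and cannot be told apart. Among deleted samples the type of deletion changed with them, being in the germline for cortex and by Nes-cre for neurons.

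Immediate-early genes are transcribed within minutes of a stimulus without new protein synthesis. In neurons, membrane depolarisation opens calcium channels, and calcium-dependent kinases and the ERK pathway then phosphorylate CREB at cAMP response elements and the ELK partners of SRF at CArG boxes. The first products are transcription factors of the AP-1 and EGR families and NPAS4, which go on to control later genes whose proteins act at synapses or are secreted, such as *Arc*, *Homer1* and *Bdnf*, while dual-specificity phosphatases and other regulators switch the signal off again. Many of the same genes also respond to growth factors, to tissue dissociation and to stress, and several are present at a steady level in the developing cortex.

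Promoter sequence from RefSeq (GRCm38.p6) was available for 29 of the 40 genes, with 43 start sites between them, and was searched, on both strands of the 250 bases before each start site, for the recognition letters of the factors named above. Of the 29 genes, 18 (62.1%) held the 5-base core of the cAMP response element, TGACG, before at least 1 start site, against 19.8% of all 27025 genes in the same table. The whole cAMP response element, TGACGTCA, which contains that core, was found in *Btg2*, *Dusp1* and *Maff* (10.3% against 1.77%), and a CArG box in *Dusp5*, *Egr2* and *Srf* (10.3% against 1.62%). The AP-1 site TGANTCA was found in *Bdnf* only (3.45% against 7.82%), and the EGR site GCGTGGGCG in *Maff* only (3.45% against 0.622%). A match is a description of the letters in this window and does not show that a factor bound there. The promoters of 4 genes on which the results below turn are shown, of which *Fos* and *Egr2* were higher in cultured neurons than in cortex and *Srf* and *Btg2* differed between litters of neurons. Capitals mark the cAMP response element or its core, on either strand, and the CArG box.
Fos: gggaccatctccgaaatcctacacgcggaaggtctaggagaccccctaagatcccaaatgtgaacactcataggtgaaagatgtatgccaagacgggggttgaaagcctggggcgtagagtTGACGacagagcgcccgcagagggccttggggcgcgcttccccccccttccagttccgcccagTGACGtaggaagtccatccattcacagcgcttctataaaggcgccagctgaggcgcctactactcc
Egr2: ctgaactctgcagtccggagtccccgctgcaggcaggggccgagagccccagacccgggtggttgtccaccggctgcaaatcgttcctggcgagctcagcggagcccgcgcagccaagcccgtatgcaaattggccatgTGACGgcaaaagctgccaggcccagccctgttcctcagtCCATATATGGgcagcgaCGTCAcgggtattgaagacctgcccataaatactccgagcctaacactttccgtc
Srf: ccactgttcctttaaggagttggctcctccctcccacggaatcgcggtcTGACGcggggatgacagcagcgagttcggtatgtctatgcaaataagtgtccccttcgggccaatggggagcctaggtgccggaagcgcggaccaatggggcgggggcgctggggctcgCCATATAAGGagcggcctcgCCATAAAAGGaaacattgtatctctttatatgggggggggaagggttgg
Btg2: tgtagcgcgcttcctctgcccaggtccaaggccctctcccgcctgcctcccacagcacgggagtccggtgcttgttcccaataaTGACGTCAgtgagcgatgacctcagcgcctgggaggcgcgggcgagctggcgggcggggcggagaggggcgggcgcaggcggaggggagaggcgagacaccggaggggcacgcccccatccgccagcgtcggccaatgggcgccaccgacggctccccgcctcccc
These stretches lie at chr12:85473640-85473889 on the plus strand, chr10:67537619-67537868 on the plus strand, chr17:46556176-46556412 on the minus strand and chr1:134079156-134079405 on the minus strand. None contains an annotated exon, and that of *Srf* was ended where its first exon begins in GENCODE. Counting -1 as the base before the start site, the CArG box of *Egr2* began at -72, and those of *Srf* at -82 and -62. The cAMP response element of *Btg2* began at -166, and the cores in *Fos* at -129 and -66.

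Libraries held 16858007 to 31157700 counted reads, the shallowest being *Phf6*lox/Y;Nes-creTg/+ replicate 3. Levels are given as CPM, read counts scaled to a common library size by TMM over all 15 libraries, and FDR denotes the p-value of edgeR's quasi-likelihood F test after Benjamini-Hochberg adjustment over all genes tested in a comparison. Reads over the whole *Phf6* gene were at 149 to 191 CPM in control and 42.4 to 55.2 CPM in *Phf6*-/Y cortices, and at 228 to 259 CPM in control and 59.9 to 85.8 CPM in *Phf6*lox/Y;Nes-creTg/+ neurons. Markers of postmitotic cortical neurons summed to 4840 to 6790 CPM over all cortices and to 8490 to 9690 CPM over all cultures. Markers of radial glia and progenitors summed to 1900 to 2220 CPM in cortices and were still present at 515 to 803 CPM in the cultures. Markers of endothelial cells, at 153 to 330 CPM in cortices, were at 4.77 to 9.55 CPM in cultures, where *Cldn5* and *Tie1* were at 0 in all 3 controls. In such bulk samples, fewer cells of a type and less RNA per cell cannot be told apart. The *Phf6*-/Y cortex of litter 3 (replicate 1) stood apart from the other cortices, with the lowest sum of neuron markers (4840 CPM). Its sums were the highest for cycling cells (1310 CPM), radial glia and progenitors (2220 CPM) and erythroid cells (467 CPM). For microglia and macrophages its sum was the lowest (34.8 CPM). Results that rest on this library are also given without it.

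Across the list, levels per kilobase of gene length spanned a wide range in every group. In control cortices the highest mean levels were those of *Jund* (87.5 CPM per kilobase), a constitutive AP-1 subunit, of *Dusp4* (78.5), a nuclear phosphatase of ERK, of *Ier5* (62.0), a nuclear immediate-early protein, and of *Gadd45g* (58.0), a growth-arrest gene that is also used in neurogenesis. *Jund* (90.4 CPM per kilobase), *Dusp4* (61.1) and *Ier5* (52.2) also led in control neurons, followed by *Jun* (48.6) and *Klf6* (24.8). The classical stimulus-induced genes were far lower, with *Fos* at 0.491 CPM per kilobase in control cortices and 2.65 in control neurons, *Npas4* at 0.585 and 0.916, and *Arc* at 2.53 and 0.623. At the bottom of the list were *Ptgs2*, which encodes the inducible cyclooxygenase, *Egr4*, *Fosl1*, *Fosb* and *Egr2*, all below 0.1 CPM per kilobase in control cortices. *Fosl1*, *Egr4* and *Ptgs2* did not pass the low-count filter in any comparison. *Fosb* and *Egr2* did not pass it in the genotype comparison of the cortex, and *Egr3* did not in that of the neurons.

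**Figure D1:**
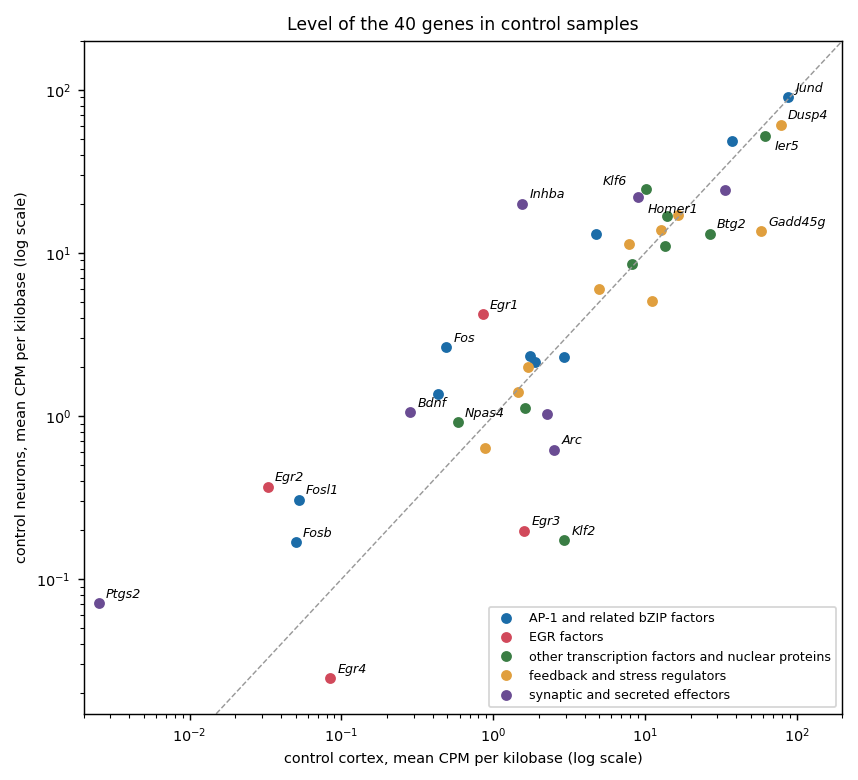
Mean level of each of the 40 genes in control cortices (x axis, n = 3) and control cultured neurons (y axis, n = 3), in CPM per kilobase of gene length on log scales, coloured by role. Points above the dashed line of equal level are higher in neurons: *Inhba*, *Fos*, *Egr1* and *Egr2* lie above it, and *Klf2*, *Egr3*, *Arc* and *Gadd45g* below it.

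The level of the list in cultured neurons was first compared with that in cortex among controls. Of 37 genes tested, 11 were higher and 9 lower in neurons at an FDR below 0.05. Among all 14320 genes tested, 24.7% were higher and 26.4% lower (51.1% called in all), so that the share of the list called, 54.1%, lay near that of all genes. The called genes did not share one direction. *Fos*, *Egr1*, *Egr2*, *Bdnf* and *Inhba* were among those higher, and *Egr3*, *Klf2*, *Gadd45g*, *Arc* and *Nptx2* among those lower. The median log2 fold change of the list was 0.12, and that of all genes -0.03. The same contrast among *Phf6*-deleted samples used other libraries, although litters 1 to 6 contributed to both. There, 20 of 37 genes were higher and 9 lower, where 28% and 31.1% of all 14416 genes were (59.2% called in all). All 11 genes higher among controls were higher again (55% of the 20), and all 9 lower ones were lower again. Of all genes higher among controls, 87% were higher again among deleted samples (76.2% of those higher there). Of all genes lower among controls, 88.9% were lower again (74.8% of those lower there).

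**Figure D2:**
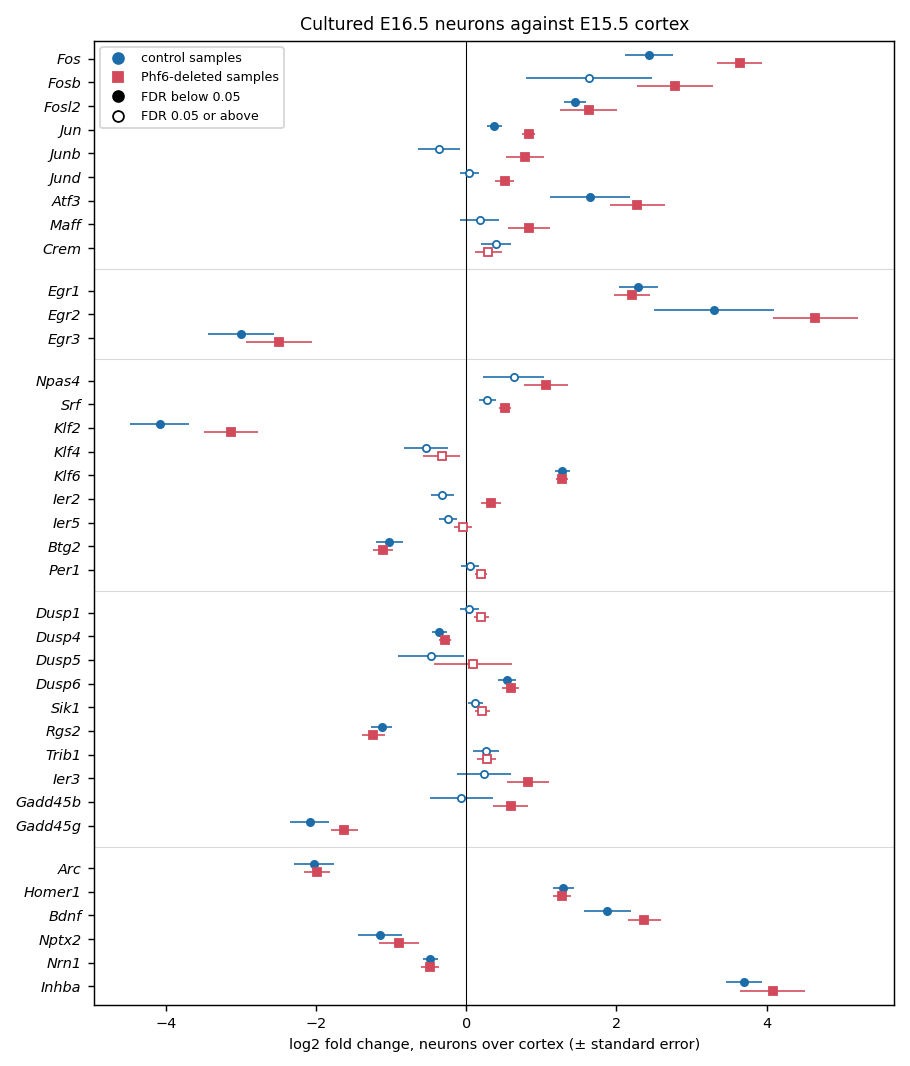
Log2 fold change of cultured E16.5 neurons over E15.5 cortex for each tested gene, with its standard error, in control (circles) and *Phf6*-deleted samples (squares), grouped by role. Filled symbols have an FDR below 0.05, and the filled circles and squares of a gene point the same way wherever both are filled.

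Of the AP-1 and related bZIP factors, 4 of 9 tested rose in control neurons (*Fos*, *Fosl2*, *Jun* and *Atf3*) and none fell. *Fos*, the inducible partner of JUN proteins, was at 0.688, 1.23 and 1.17 CPM in control cortices and at 4.66, 6.18 and 5.79 CPM in control neurons. It was at 0.68 to 0.914 CPM in the 5 deleted cortices and at 16, 7.4, 10.7 and 5.53 CPM in deleted neurons. Every culture was above every cortex, and the deleted culture of litter 7 was the highest of all. On the log2 scale the change was 2.43 (standard error 0.32, FDR = 3.7e-05) among controls and 3.64 (standard error 0.30, FDR = 6.95e-07) among deleted samples. *Atf3*, a stress-responsive bZIP factor, was at 0.845, 0.238 and 1.49 CPM in control cortices and at 1.83, 3.6 and 2.72 CPM in control neurons. The groups did not overlap but came close, and the call among controls (log2 fold change 1.65, standard error 0.53, FDR = 0.0196) was lost without control cortex replicate 1 or without control neuron replicate 2. Among deleted samples *Atf3* was at 0.293 to 1.26 CPM in cortices and at 2.66, 3.76, 3.95 and 3.41 CPM in neurons (log2 fold change 2.28, standard error 0.37, FDR = 0.000169). *Fosl2*, a FOS-related subunit, was at 21.4, 28.6 and 33.8 CPM in control cortices and at 73.5, 72.8 and 82.9 CPM in control neurons (log2 fold change 1.45, standard error 0.15, FDR = 9.66e-06). In deleted cortices it was at 8.07 CPM in the litter 3 library and at 35.4 to 40.5 CPM in the other 4, against 95.9, 81.4, 109 and 108 CPM in deleted neurons. All cultures again exceeded all cortices, and the fold change among deleted samples (1.63, standard error 0.38, FDR = 0.00515) was 1.39 without the litter 3 library (FDR = 7.4e-08). *Jun* differed less, by 0.37 among controls (FDR = 0.00675) and 0.83 among deleted samples (FDR = 7.43e-06). *Fosb*, *Junb*, *Jund* and *Maff* were called higher in deleted samples and not in controls. The deleted contrast held more libraries, and a call in only 1 contrast does not test the difference between them. That difference is tested below as an interaction, where *Fosb* and *Maff* did not reach an unadjusted p below 0.05. *Crem*, a cAMP-responsive modulator, passed in neither.

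**Figure D3:**
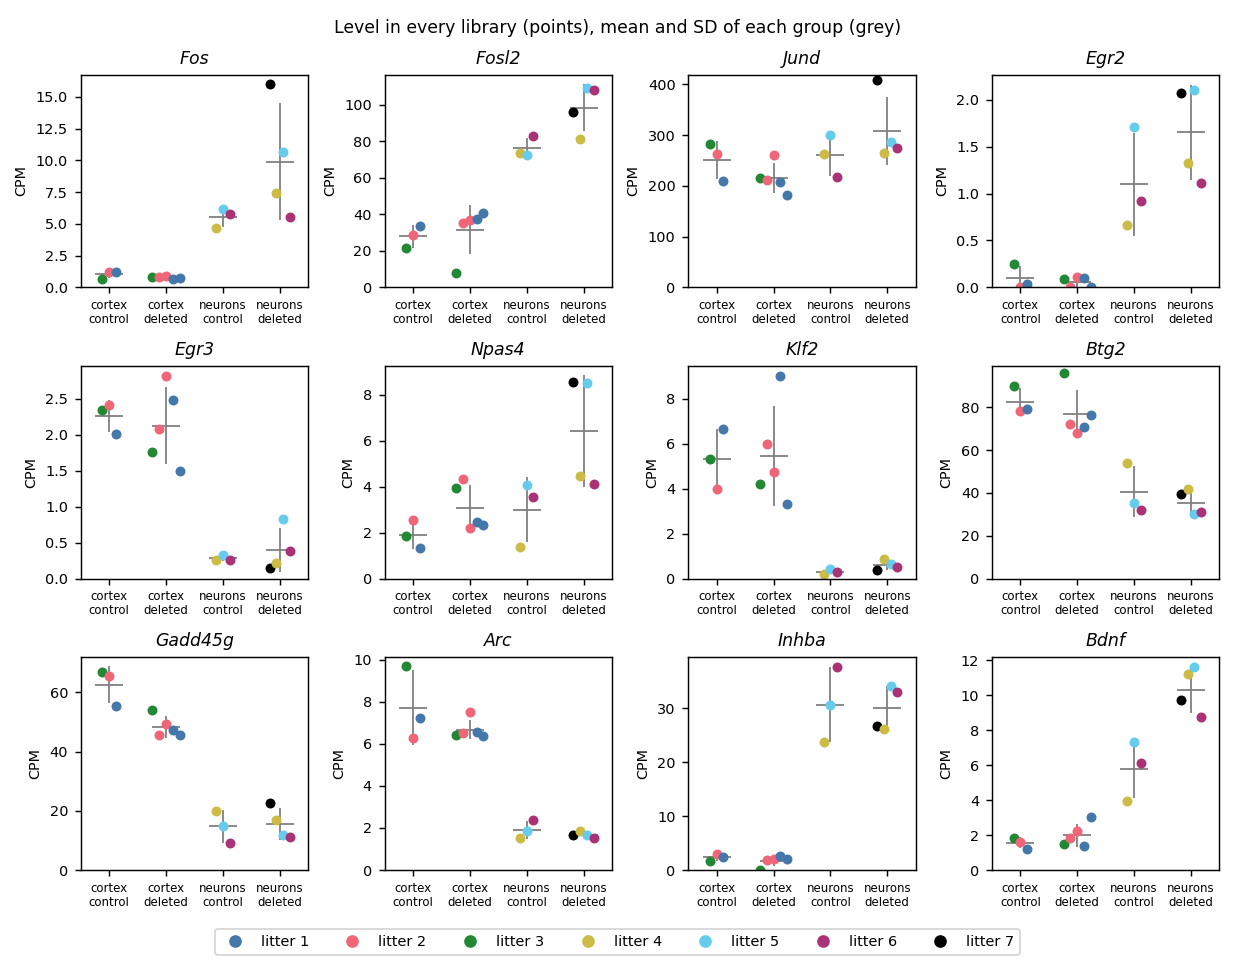
Level in CPM (y axes, from 0) of 12 of the genes in every library, by group (x axis) and coloured by litter, with the group mean and SD in grey (n = 3, 5, 3 and 4 from left to right). *Fos*, *Fosl2*, *Egr2*, *Inhba* and *Bdnf* are higher and *Egr3*, *Klf2*, *Btg2*, *Gadd45g* and *Arc* lower in all cultures than in all cortices.

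The EGR zinc finger factors, which are early targets of SRF and the ERK pathway, were split. *Egr1* was at 2.38, 1.98 and 3.51 CPM in control cortices and at 9.65, 15.9 and 13.1 CPM in control neurons. In deleted samples it was at 2.68 to 5.51 CPM in cortices and at 27.2, 14.8, 18.5 and 13.8 CPM in neurons. Each culture lay above each cortex (log2 fold change 2.29, standard error 0.26, FDR = 1.03e-05 among controls; 2.21, standard error 0.24, FDR = 7.13e-06 among deleted samples). *Egr2*, whose promoter holds a CArG box, was nearly absent from the cortex, with 8, 0 and 1 reads in control libraries and 0 to 3 in deleted ones. It was at 0.66, 1.71 and 0.921 CPM in control neurons (18, 37 and 21 reads) and at 2.07, 1.33, 2.1 and 1.11 CPM in deleted neurons. The fold changes of *Egr2*, 3.30 (standard error 0.80, FDR = 0.00357) and 4.65 (standard error 0.57, FDR = 1.84e-05), rest on these few reads in cortex, and among controls moved between 2.78 and 5.44 with single libraries left out. *Egr3*, which is induced downstream of activity in mature neurons, went the other way. It was at 2.35, 2.42 and 2.01 CPM in control cortices against 0.257, 0.323 and 0.263 CPM in control neurons, and at 1.5 to 2.82 CPM in deleted cortices against 0.148, 0.221, 0.827 and 0.384 CPM in deleted neurons. All cultures lay below all cortices for *Egr3*, with log2 fold changes of -3.00 (standard error 0.44, FDR = 8.55e-05) and -2.50 (standard error 0.44, FDR = 0.00033). On GRCm38, *Egr2* lies on chromosome 10 (67534469 to 67542188) and *Egr3* on chromosome 14 (70077317 to 70082613).

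Among the other transcription factors and nuclear proteins, 1 of 9 rose and 2 fell in control neurons. *Klf6*, a zinc finger factor induced by injury and growth signals, was at 40.5, 45.7 and 42 CPM in control cortices and at 93.8, 102 and 117 CPM in control neurons. Deleted cortices, at 39.8 to 51.7 CPM, and deleted neurons, at 101, 106, 122 and 115 CPM, were separated in the same way. The log2 fold change of *Klf6* was 1.28 (standard error 0.10, FDR = 5.98e-07) among controls and 1.27 (standard error 0.08, FDR = 1.14e-07) among deleted samples. *Klf2*, a flow-responsive factor of endothelial cells, was at 5.32, 4 and 6.65 CPM in control cortices and at 0.22, 0.415 and 0.307 CPM in control neurons. In deleted samples it was at 3.34 to 9.02 CPM in cortices and at 0.394, 0.884, 0.636 and 0.529 CPM in neurons. The fall of *Klf2* was the largest on the list among controls (log2 fold change -4.09, standard error 0.39, FDR = 2.45e-06; -3.14, standard error 0.36, FDR = 9.44e-06 among deleted samples). All 7 endothelial markers fell as well, from a sum of 184 to 218 CPM to one of 4.77 to 5.83 CPM among controls. The deleted cortex with the highest sum of endothelial markers (330 CPM, replicate 4) also had the highest *Klf2* (9.02 CPM). Of all cortices, the same library had the highest sums of mural cell and meningeal fibroblast markers (660 CPM) and of microglia and macrophage markers (75.3 CPM). The part of the markers in the *Klf2* result was not tested. *Btg2*, an antiproliferative gene with a cAMP response element in its promoter, is also expressed by progenitors that are about to give rise to neurons. It was at 89.7, 78.2 and 79.3 CPM in control cortices and at 54.1, 35.1 and 32.2 CPM in control neurons (log2 fold change -1.03, standard error 0.18, FDR = 0.00104). Deleted cortices were at 67.9 to 95.9 CPM and deleted neurons at 39.3, 41.7, 30 and 31.1 CPM (log2 fold change -1.11, standard error 0.13, FDR = 1.04e-05), without overlap. The 8 markers of radial glia and progenitors all fell too (median -1.83 among controls), and their part in the fall of *Btg2* was not tested. *Npas4*, the neuron-specific factor induced by calcium entry, had values of 1.33 to 2.57 CPM in control cortices and 1.39 to 4.06 CPM in control neurons, which overlapped (log2 fold change 0.63, standard error 0.41, FDR = 0.219). It was called among deleted samples (1.06, standard error 0.29, FDR = 0.00721), as were *Srf* and *Ier2*.

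The feedback and stress regulators had 1 gene higher and 3 lower of 10 in control neurons. *Dusp6*, the cytoplasmic phosphatase of ERK, was at 19.7, 22.7 and 23.1 CPM in control cortices and at 30.6, 30 and 35.3 CPM in control neurons. Deleted cortices were at 20.3 to 29.2 CPM and deleted neurons at 42.6, 34.4, 43.9 and 38 CPM, and all cultures lay above all cortices. The rise was small, 0.54 (standard error 0.12, FDR = 0.00203) and 0.59 (standard error 0.11, FDR = 0.00056) on the log2 scale. *Gadd45g* fell from 66.9, 65.6 and 55.5 CPM in control cortices to 20.1, 15 and 9.08 CPM in control neurons, and from 45.5 to 54.1 CPM in deleted cortices to 22.7, 16.9, 11.8 and 11.1 CPM in deleted neurons. Both contrasts were without overlap (log2 fold changes -2.09, standard error 0.26, FDR = 0.000403, and -1.63, standard error 0.18, FDR = 1.38e-05). *Rgs2*, a GTPase-activating protein that shortens G protein signals, was at 37.9, 29.2 and 34.1 CPM in control cortices and at 17.1, 15.7 and 13.4 CPM in control neurons. It was at 34.8 to 57.4 CPM in deleted cortices and at 17.1, 20.7, 17.5 and 16.3 CPM in deleted neurons. All cultures were below all cortices, with log2 fold changes of -1.13 (standard error 0.14, FDR = 1.92e-05) and -1.24 (standard error 0.15, FDR = 1.41e-05). *Dusp4* was lower by a smaller amount in both contrasts (-0.36 and -0.28). *Dusp1*, *Dusp5*, *Sik1* and *Trib1* passed the test in neither.

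All 6 synaptic and secreted effectors tested were called, 3 in each direction. *Inhba*, which encodes the activin A subunit, an activity-induced secreted factor, was at 1.63, 3.01 and 2.46 CPM in control cortices and at 23.7, 30.6 and 37.6 CPM in control neurons. It was at 0.084 CPM in the litter 3 library and at 1.86 to 2.59 CPM in the other 4 deleted cortices, and at 26.7, 26.2, 34.2 and 33 CPM in deleted neurons. Its rise was the largest of the list among controls (log2 fold change 3.70, standard error 0.24, FDR = 3.59e-07), and among deleted samples (4.08, standard error 0.43, FDR = 2.58e-05) it was 3.78 without the litter 3 library (FDR = 1.65e-09). *Bdnf*, the neurotrophin gene whose transcription follows neuronal calcium entry, was at 1.85, 1.62 and 1.21 CPM in control cortices and at 3.96, 7.34 and 6.1 CPM in control neurons. Deleted cortices were at 1.39 to 3.01 CPM and deleted neurons at 9.7, 11.2, 11.6 and 8.75 CPM. Every culture was above every cortex (log2 fold change 1.88, standard error 0.31, FDR = 0.000246 among controls; 2.37, standard error 0.22, FDR = 2.08e-06 among deleted samples). *Arc*, a regulator of AMPA receptor endocytosis at synapses, was at 9.7, 6.26 and 7.21 CPM in control cortices and at 1.5, 1.85 and 2.37 CPM in control neurons. In deleted samples it was at 6.35 to 7.5 CPM in cortices and at 1.67, 1.84, 1.65 and 1.54 CPM in neurons. *Arc* therefore fell while *Fos* and *Egr1* rose in the same cultures, with log2 fold changes of -2.03 (standard error 0.27, FDR = 4.28e-05) and -1.99 (standard error 0.17, FDR = 8.78e-07). *Homer1*, a postsynaptic scaffold gene, was higher (1.29 and 1.27). *Nptx2*, a secreted pentraxin that clusters AMPA receptors, was lower (-1.15 and -0.90), as was *Nrn1*, a membrane-anchored neurite growth factor (-0.48 and -0.49).

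Other genes of the pathway moved in both directions in the same contrast. Of 38 genes that signal to immediate-early promoters, 15 were higher and 7 lower in control neurons. The 57.9% called lay near the 51.1% of all genes (24.7% higher and 26.4% lower). The largest changes were those of *Camk4*, a nuclear calcium-dependent kinase (log2 fold change 2.24, standard error 0.12, FDR = 6.36e-08), and *Nfatc4*, a calcineurin-regulated factor (-2.39, standard error 0.13, FDR = 2.28e-08). Of 27 tested genes among other activity-induced genes, 13 were higher and 4 lower (63% called), led by the nuclear receptor gene *Nr4a3* (1.74, standard error 0.16, FDR = 4.91e-06) and the neuropeptide precursor gene *Vgf* (1.65, standard error 0.18, FDR = 9.32e-06). Heat shock genes, which respond to protein damage, had 2 higher and 0 lower of 10 (20% called; *Hsp90aa1*, 0.66, FDR = 3.9e-05, and *Dnaja1*, 0.58, FDR = 0.000354). Genes of the integrated stress response, driven by ATF4, had 5 higher and 0 lower of 7 (71.4% called), led by *Asns* (1.41, FDR = 5.9e-07) and *Chac1* (1.34, FDR = 0.00106). Among deleted samples, 68.4% of the signalling and 66.7% of the other activity-induced genes were called, against 59.2% of all genes. Heat shock genes there had 5 higher and 1 lower of 10 (60%). Integrated stress response genes had 6 higher and 0 lower of 7 (85.7%). The part of these stress genes in the rise of *Fos*, *Atf3* or *Egr1* was not tested.

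The effect of *Phf6* deletion was examined within each tissue with litter as a term. In the E15.5 cortex none of the 35 genes tested was called by edgeR's quasi-likelihood test, where 0.386% of all 14750 genes were. An unadjusted p below 0.05 was reached by 6 (17.1%), against 10.5% of all genes, with 2 higher and 4 lower (5.69% and 4.77% of all genes). limma-trend also called 0, and DESeq2 called 2 lower, *Gadd45g* and *Ier5*. The estimate was above 0 for 13 of the 35 genes, against 49.4% of all genes, and for 21 once the *Phf6*-/Y library of litter 3 was left out. The mean of the deleted libraries was above the control in every litter for 5 genes (15.9% of all genes), namely *Egr1*, *Npas4*, *Klf6*, *Dusp6* and *Rgs2*, and below it in every litter for 9 (16.2% of all genes). With no call to describe, the genes of smallest p were singled out after their values had been seen, here and in neurons. *Gadd45g* had the smallest p. It was at 66.9, 65.6 and 55.5 CPM in controls and at 54.1, 45.5, 49.4, 47.3 and 45.5 CPM in *Phf6*-/Y cortices. All 5 were below all 3 controls, which held for 2.55% of all genes, and the estimated log2 fold change was -0.35 (standard error 0.08, FDR = 0.0717). *Ier5* was at 183, 227 and 198 CPM in controls and at 125, 174, 208, 166 and 177 CPM in *Phf6*-/Y cortices, with overlap (log2 fold change -0.32, standard error 0.08, FDR = 0.133; -0.23 and FDR = 0.48 without the litter 3 *Phf6*-/Y library). *Rgs2* was at 37.9, 29.2 and 34.1 CPM in controls and at 57.4, 43.8, 41, 34.8 and 34.9 CPM in *Phf6*-/Y cortices, also with overlap (0.36, standard error 0.10, FDR = 0.198; 0.28 and FDR = 0.537 without that library). With the litter 3 *Phf6*-/Y library left out, and with any other single library left out, again 0 genes of the list were called. Markers of some other cells varied widely among cortices. Choroid plexus markers summed to 0.813 to 447 CPM in controls and to 1.63 to 311 CPM in *Phf6*-/Y cortices. Those of mural cells and meningeal fibroblasts summed to 80.9 to 360 CPM and to 74.6 to 660 CPM. All 9 of these had an estimate above 0 (median 0.7), and 0 of the 3 choroid plexus markers did (median -1.55). None of these had an unadjusted p below 0.05. Of 6 interneuron markers 2 did, both higher, and of 5 markers of cycling cells 2 did, 1 higher and 1 lower. So did 1 of 8 markers of radial glia and progenitors and 1 of 7 of postmitotic cortical neurons, both lower. Among endothelial, microglia and macrophage, and erythroid markers 0 did. The part of these cells in the estimates for the list was not tested.

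In E16.5 cultured neurons none of 36 genes was called either, where 0.273% of all 13909 genes were, but the estimates leaned to one side. An unadjusted p below 0.05 was reached by 14 (38.9%), against 10.3% of all genes, 13 of them with a higher level in *Phf6*lox/Y;Nes-creTg/+ neurons (5.87% of all genes) and 1, *Btg2*, with a lower one (4.46% of all genes). The log2 fold change was above 0 for 31 of 36 genes, against 50.3% of all genes, and its median was 0.23, against 0.000974 over all genes. In litters 4, 5 and 6, the deleted culture was above its control each time for 19 of the genes (16% of all genes) and below it each time for 1 (15.7%). The 19 included *Fosl2*, *Jun*, *Junb*, *Atf3* and *Maff* of the AP-1 class, and *Egr1*, *Egr2*, *Npas4*, *Srf*, *Dusp6*, *Homer1* and *Bdnf*. The genes of the list are not independent of each other, and these shares describe the libraries without a test of the list. Markers of other cells moved in the same contrast. The estimate was below 0 for all 5 markers of cycling cells (median -0.22), 3 of them at an unadjusted p below 0.05, and 3 of 8 markers of radial glia and progenitors were lower at that level (median -0.17). *Ttr*, a choroid plexus transcript and the only marker of that list tested, was called higher (2.84, edgeR FDR = 0.000188). Of 8 tested markers of mural cells and meningeal fibroblasts, 7 had an estimate above 0 (median 0.52). At an unadjusted p below 0.05, 2 were higher and 0 lower. All 9 markers of these cells summed to 14.5 to 16 CPM in controls and to 18.3 to 25.8 CPM in deleted cultures. The part of these cells in the estimates for the list was not tested.

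**Figure D4:**
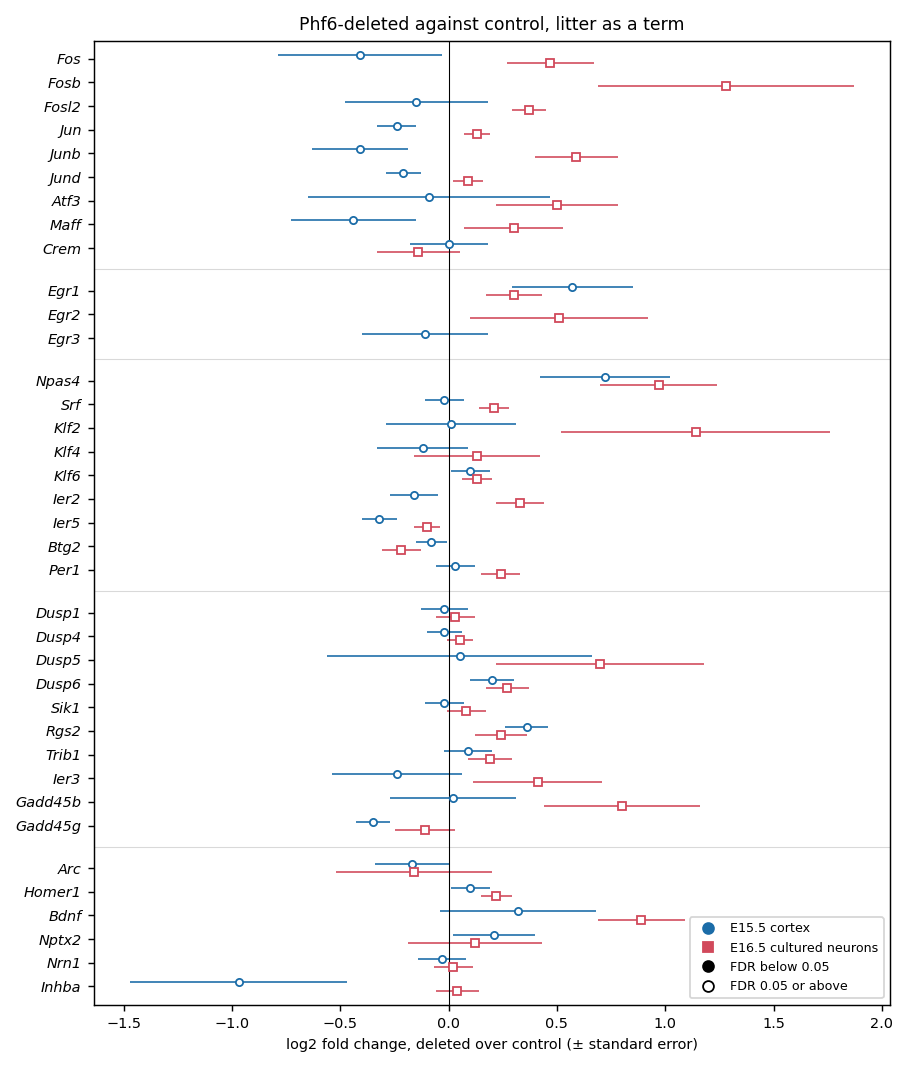
Log2 fold change of *Phf6*-deleted over control samples for each tested gene, with its standard error, in E15.5 cortex (circles; 3 controls and 5 deleted) and E16.5 cultured neurons (squares; 3 controls and 4 deleted), with litter as a term. All symbols are open because no gene reached an FDR below 0.05, and 31 of the 36 squares lie right of 0.

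The smallest p-values among neurons were those of *Fosl2*, *Bdnf* and *Npas4*. *Fosl2* was at 73.5, 72.8 and 82.9 CPM in control cultures of litters 4, 5 and 6 and at 81.4, 109 and 108 CPM in deleted cultures of the same litters, with 95.9 CPM in that of litter 7. The deleted culture was the higher of each litter, although the lowest deleted culture lay below the highest control (log2 fold change 0.37, standard error 0.08, FDR = 0.0881). *Bdnf* was at 3.96, 7.34 and 6.1 CPM in controls and at 11.2, 11.6 and 8.75 CPM in deleted cultures of litters 4 to 6, with 9.7 CPM in litter 7. All 4 were above all 3 controls (0.89, standard error 0.20, FDR = 0.0928). *Npas4* was at 1.39, 4.06 and 3.55 CPM in controls and at 4.49, 8.53 and 4.13 CPM in deleted cultures, with 8.57 CPM in litter 7, again without overlap (0.97, standard error 0.27, FDR = 0.172). *Ier2*, a nuclear immediate-early protein, was the remaining gene whose groups did not overlap (13.6 to 18.4 CPM against 18.6 to 30.1 CPM; 0.33, standard error 0.11, FDR = 0.281), so that 3 of the 36 genes lay higher in every deleted culture, as did 3.61% of all genes. *Fos* itself was at 4.66, 6.18 and 5.79 CPM in controls and at 7.4, 10.7 and 5.53 CPM in deleted cultures of litters 4 to 6, and was the lower in the deleted culture of litter 6 (0.47, standard error 0.20, FDR = 0.408). *Arc* (-0.16, standard error 0.36), *Dusp1* (0.03, standard error 0.09), *Nrn1* (0.02, standard error 0.09) and *Inhba* (0.04, standard error 0.10) had estimates near 0.

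These near misses depended on the fit and on single libraries. DESeq2 called *Fosl2* and limma-trend called none. Without control replicate 3 (litter 6), 6 genes were called higher, namely *Fosl2*, *Npas4*, *Per1*, *Dusp6*, *Homer1* and *Bdnf*, and without deleted replicate 4 of the same litter 4 were, where 3.51% and 2.77% of all genes were called. Without control replicate 1 or deleted replicate 2, both of litter 4, only *Fosl2* was called, and with any of the other 3 libraries left out none was. Within the cultures, the deleted library of litter 5 (replicate 3) had the highest level of 16 of the 36 genes (14.2% of all genes) and that of litter 7 the highest of 10 (19.4% of all genes), while the control of litter 4 had the lowest of 16 (15.2% of all genes). The litter 5 library was also the shallowest and held the most *Ttr*, at 22.3 CPM against 2.43 to 6.25 CPM in other deleted cultures and 0.403 to 2.12 CPM in controls. Without it, the median log2 fold change of the list was 0.18, and 27 of 35 genes were above 0. The part of its depth and of choroid plexus RNA in these estimates was not tested.

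Genes outside the list but on the same pathways were called in neurons in 4 cases, all higher. Of the 28 other activity-induced genes, a list likewise drawn up with earlier results known, 3 were called, where 0.194% of all genes were higher. *Nr4a2*, a nuclear receptor gene induced by activity and also a marker of deep-layer and subplate neurons, was at 16.9, 24.3 and 29 CPM in controls and at 38.7, 33.1, 46.5 and 47.3 CPM in deleted cultures (log2 fold change 0.87, standard error 0.09, FDR = 0.000596). *Vgf* was at 18, 26.2 and 22.2 CPM in controls and at 35.7, 28.3, 45.5 and 35.1 CPM in deleted cultures (0.70, standard error 0.09, FDR = 0.004). *Nr4a3* was at 57.5, 61.2 and 79.8 CPM in controls and at 79.9, 86.3, 92.9 and 95.8 CPM in deleted cultures (0.48, standard error 0.08, FDR = 0.0148). For all 3 every deleted culture was above every control, which held for 3.61% of all genes. For *Nr4a3* the groups came close, with 79.8 CPM in the highest control and 79.9 CPM in the deleted culture of litter 7. Of the 38 signalling genes *Mef2c*, which encodes an activity-dependent neuronal transcription factor, was called (0.36, standard error 0.07, FDR = 0.0382), with overlap between groups. None of 9 heat shock genes was called by edgeR, and 0 had an unadjusted p below 0.05. None of 7 integrated stress response genes was called either, but 4 (57.1%, against 10.3% of all genes) had an unadjusted p below 0.05, all with the higher level in deleted cultures. They were *Atf4* (log2 fold change 0.19, standard error 0.06, FDR = 0.23), *Ddit3* (0.28, standard error 0.11, FDR = 0.369), *Chac1* (0.41, standard error 0.18, FDR = 0.455) and *Asns* (0.17, standard error 0.07, FDR = 0.399), named after their values had been seen. For *Atf4*, *Ddit3* and *Chac1* every deleted culture was above every control, as for 3.61% of all genes. The groups of *Chac1* came close, with 6.71 CPM in the highest control and 6.75 CPM in the lowest deleted culture. The part of these stress genes in the estimates for the list was not tested. In the cortex no gene of the signalling, activity-induced, heat shock or stress response lists was called by edgeR, where 0.386% of all genes were. Of 38 signalling genes, 6 had an unadjusted p below 0.05 (15.8%, 4 higher and 2 lower), against 10.5% of all genes. Of 27 activity-induced genes 7 did (25.9%, 3 higher and 4 lower), and of 10 heat shock genes 0. The stress response list had 1 of 6 (16.7%, lower).

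Whether the genotype effect differed between tissues was tested as an interaction over all 15 libraries. The deletion was in the germline for cortices and by Nes-cre for neurons, so that tissue and type of deletion cannot be told apart here. None of 37 genes was called, where 0.0133% of all 15001 genes were, and DESeq2 and limma-trend called none either. An unadjusted p below 0.05 was reached by 5 (13.5%, against 5.19% of all genes), each with the higher estimate in neurons (2.27% of all genes). They were *Junb* (difference in log2 fold change 0.99, standard error 0.30, FDR = 0.7), *Jun* (0.37, standard error 0.12), *Ier2* (0.49, standard error 0.16), *Fos* (0.88, standard error 0.36) and *Jund* (0.29, standard error 0.13). Of these 5, 4 are AP-1 subunits, whose estimates were below 0 in the cortex and above 0 in neurons. Among cortices, the control of litter 3 had the highest level of *Junb*, *Jun*, *Ier2* and *Jund*. It had the highest level of 10 of the 35 genes tested in cortex (12.2% of all genes). Without the litter 3 *Phf6*-/Y cortex, the differences were 0.77 for *Junb*, 0.28 for *Jun*, 0.41 for *Ier2*, 1.08 for *Fos* and 0.22 for *Jund*, and the last no longer had an unadjusted p below 0.05. The median difference over the list was 0.24, and 0.13 without that library or without the control cortex of litter 3. In every litter that held both genotypes, the mean of deleted libraries was above that of the control for *Egr1*, *Npas4*, *Dusp6* and *Rgs2*. They were picked out after their values had been seen. Of all genes 15.9% were so in cortex and 16% in neurons, and the share over both tissues together was not counted. For *Npas4* the difference between tissues was 0.25 (standard error 0.43, FDR = 0.965).

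Litters were compared within each tissue by a joint test of the litter terms, with genotype in the model. In cultured neurons 9 of 36 genes differed between litters at an FDR below 0.05, where 5.01% of all genes did. They were *Jun*, *Junb*, *Jund*, *Egr1*, *Srf*, *Ier5*, *Btg2*, *Trib1* and *Gadd45g*. *Jund* was at 262, 301 and 218 CPM in controls of litters 4, 5 and 6, at 264, 286 and 274 CPM in their deleted littermates, and at 408 CPM in the litter 7 culture (edgeR FDR = 0.00713). *Egr1* was likewise highest in litter 7, at 27.2 CPM, against 9.65 and 14.8 CPM in litter 4, 15.9 and 18.5 CPM in litter 5 and 13.1 and 13.8 CPM in litter 6 (edgeR FDR = 0.0214). For both, the litter 7 culture stood above all others, and without it (deleted replicate 1) neither was called (FDR = 0.192 and 0.189). *Jun* and *Junb* also lost their calls in that fit, whereas *Srf*, *Ier5*, *Btg2*, *Trib1* and *Gadd45g* kept theirs. *Gadd45g* was at 20.1 and 16.9 CPM in litter 4, 15 and 11.8 CPM in litter 5, 9.08 and 11.1 CPM in litter 6 and 22.7 CPM in litter 7 (edgeR FDR = 0.00917). *Btg2* was at 54.1 and 41.7 CPM in litter 4, 35.1 and 30 CPM in litter 5, 32.2 and 31.1 CPM in litter 6 and 39.3 CPM in litter 7 (edgeR FDR = 0.0121). *Ier5* was at 192 and 162 CPM in litter 4, 179 and 174 CPM in litter 5, 140 and 141 CPM in litter 6 and 183 CPM in litter 7 (edgeR FDR = 0.0292). Both cultures of litter 4 thus exceeded those of litters 5 and 6 for *Btg2* and *Gadd45g*, and litter 6 was lowest for *Gadd45g* and *Ier5*.

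**Figure D5:**
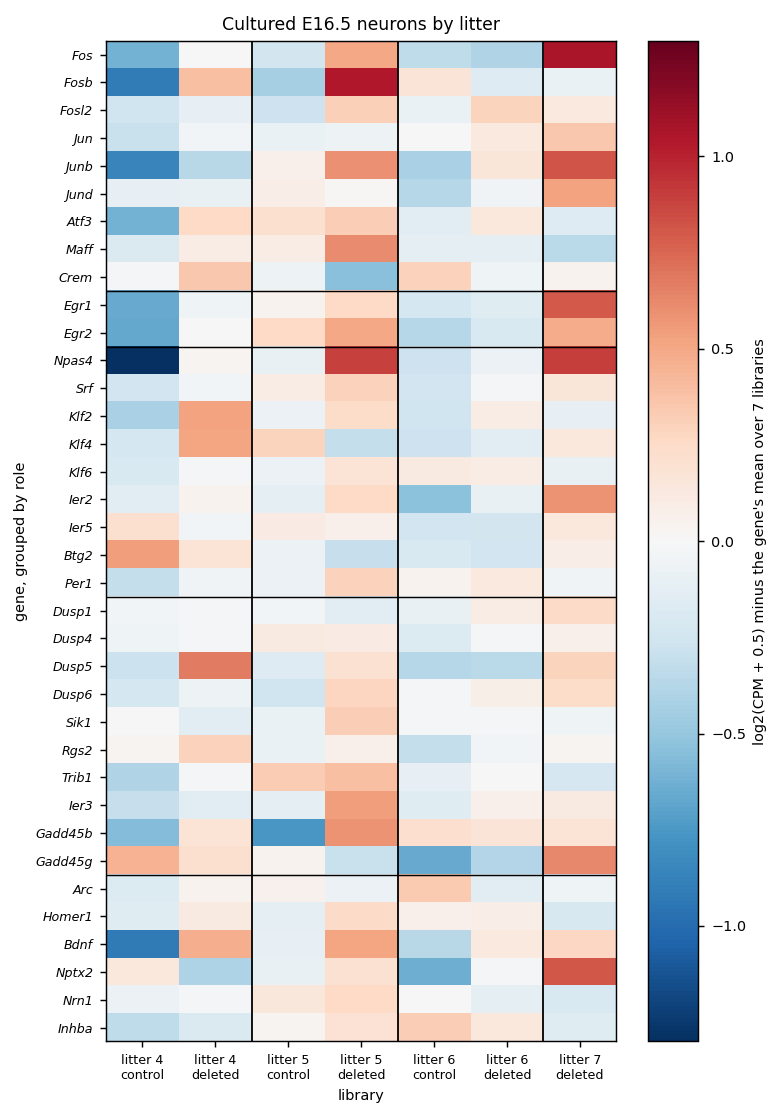
Level of each tested gene (rows, grouped by role) in the 7 cultures of E16.5 neurons (columns, ordered by litter), as log2(CPM + 0.5) minus the gene's mean over the 7 libraries. The litter 7 culture is the darkest red for *Fos*, *Jund* and *Egr1*, and the litter 4 control is blue for *Fos*, *Junb*, *Npas4* and *Bdnf*.

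Markers of other cells differed between the same litters. By edgeR, 7 of 8 markers of radial glia and progenitors, 4 of 5 of cycling cells, 5 of 6 of interneurons and 2 of 4 of erythroid cells were called, as was *Ttr*. Radial glia and progenitor markers summed to 803 and 716 CPM in litter 4, 579 and 515 CPM in litter 5, 572 and 528 CPM in litter 6 and 708 CPM in litter 7. *Btg2* and *Gadd45g* were high in the same litters 4 and 7. Interneuron markers summed to 242 and 238 CPM in litter 4, 218 and 200 CPM in litter 5, 152 and 185 CPM in litter 6 and 243 CPM in litter 7, and were lowest in litter 6, as were *Ier5* and *Gadd45g*. The part of these cells in the litter differences was not tested. The litter count itself moved with single libraries, from 5 genes without control replicate 2 or without deleted replicate 1 to 17 without deleted replicate 4. The share of all genes called moved in the same direction, with 3.46%, 4.55% and 17.4% in these fits. *Gadd45g* alone was called with each of the 7 libraries left out.

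In the cortex none of 35 genes differed between litters by edgeR's quasi-likelihood test, where 1.7% of all genes did. An unadjusted p below 0.05 was reached by 8 (22.9%), against 15.46% of all genes. The 5 smallest were those of *Homer1* (edgeR FDR = 0.0604), *Ier5* (FDR = 0.0698), *Btg2* (FDR = 0.105), *Rgs2* (FDR = 0.108) and *Jund* (FDR = 0.195). *Homer1* was at 42.8 and 43.7 CPM in litter 3, 47.9, 58 and 60.9 CPM in litter 2 and 64.6, 56.7 and 69.9 CPM in litter 1. *Jund* was at 283 and 216 CPM in litter 3, 262, 211 and 261 CPM in litter 2 and 210, 207 and 182 CPM in litter 1. Litter 3 was thus lowest for *Homer1*, and the litters overlapped for *Jund*. *Rgs2* had its highest level, 57.4 CPM, and *Btg2* its highest, 95.9 CPM, in the litter 3 *Phf6*-/Y cortex, and *Ier5* its lowest, 125 CPM. Without control replicate 1, the other library of litter 3, *Fosl2*, *Ier5* and *Inhba* were called (3.62% of all genes), and without the *Phf6*-/Y library of that litter none was (0.109%). *Rgs2* was called without control replicate 3 (0.851% of all genes), *Homer1* without *Phf6*-/Y replicate 4 (1.65%) and *Ier5* without *Phf6*-/Y replicate 5 (3.97%). Between the same litters, 3 of 8 markers of radial glia and progenitors and 2 of 5 of cycling cells were called, and their part in these differences was not tested.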

How the data were processed

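Paired-end reads were aligned to mm10 (GRCm38) with the Rsubread aligner and counted per RefSeq gene with featureCounts by the authors, who deposited a table of raw counts, one column per library. The strand setting of the counting is not given in the sources used here, so that reads of genes overlapping on opposite strands may be shared. Of the 26150 identifiers in the table, 875 without an annotation entry, 835 pseudogenes, 35 ribosomal RNAs and 1273 predicted genes were removed. A further 1029 entries without an identifier, with 0.3494 to 0.6054% of counts, were also removed. Low counts were filtered with filterByExpr on the groups of each comparison, with a minimum count of 10. Library sizes were scaled by TMM, and robust quasi-likelihood F tests were fitted with edgeR 4.0.16 in R 4.3.3. The Benjamini-Hochberg adjustment ran over all genes tested, with a threshold of 0.05. The standard error was taken as the size of the log2 fold change divided by the square root of F. Promoters were RefSeq windows of GRCm38.p6.

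Litter, given in the labels, was a term in the genotype, interaction and litter fits, as in the study's own model. Deviations of same-litter pairs of libraries from their group means correlated at -0.12 to 0.48 over 8 pairs, and those of pairs from different litters at -0.44 to 0.26 over 19. Cortex and neurons shared no litter, so that no litter term was possible between them. The scripts were tested on simulated counts. Alternatives were other scaling, no low-count filter, no litter term, all 15 libraries in one fit, DESeq2 1.42.0, limma-trend (limma 3.58.1) and leaving out each library in turn. Leaving out libraries in the litter tests, and litters 3 and 7 in others, was chosen after seeing the data.

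The 40 genes and all other lists were chosen with earlier results of these data known. Genes called for genotype or its interaction were to be described in full. In the culture comparison these were the 3 called genes per role with the largest change, and in the litter tests the 5 with the smallest p. Of other lists, genes were named where called for genotype, and otherwise the 2 with the largest change in culture.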

Additional observations from a re-analysis of the deposited data

Results flagged for a closer look

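In groups of 4 or 5 libraries, a value was singled out when its distance from the nearest other value was a large share of the group's range by Dixon's criterion, which chance meets in about 1 in 20 groups. Of 71 gene and group combinations tested, 5 (7.04%) met it. *Fosl2* was at 8.07 CPM in the litter 3 *Phf6*-/Y cortex, against 35.4 to 40.5 CPM in the other 4. *Jun* at 118 CPM and *Arc* at 7.5 CPM were both highest in *Phf6*-/Y cortex replicate 3 of litter 2, against 95.2 to 100 CPM and 6.35 to 6.57 CPM in the others. *Jund* was at 408 CPM in the *Phf6*lox/Y;Nes-creTg/+ culture of litter 7, against 264 to 286 CPM in the other 3. *Gadd45b*, a stress-induced gene, was at 3.69 CPM in the deleted culture of litter 5, against 2.64 to 2.66 CPM in the others.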

How the results depend on the processing

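Single genes were followed over the alternatives where their unadjusted p was below 0.05 in the main fit. Among these, no value changed direction under any alternative where either value was called. Over all alternatives other than those chosen after seeing the data, 1112 values of these genes kept their side of the threshold, 29 lost a call and 45 gained one. Calls gained by other genes of the list are not in these counts. Without a low-count filter, 1 gene was called lower for genotype in cortex, 3 higher in neurons, 3 differed between litters in cortex and 14 in neurons, where 0.612%, 1.64%, 2.59% and 10.9% of all genes were called. DESeq2 called 2 lower for genotype in cortex (1.35% of all genes called) and 1 higher in neurons (0.446%), and library totals without scaling factors called 2 higher in neurons (0.525%). With library totals, the median log2 fold change of all genes between neurons and cortex shifted from -0.03 to -0.17 among controls and from -0.03 to -0.19 among deleted samples. *Jun* was then no longer called among controls (0.23), and 16 genes instead of 20 were called higher among deleted samples.

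Without the litter term as replicate block, again 0 genes of the list were called for genotype in either tissue, and 1 gene of all those tested in each. Leaving out 1 library at a time gave 10 to 14 genes higher and 9 to 10 lower between neurons and cortex among controls. Among deleted samples it gave 16 to 21 higher and 9 lower. It gave 0 to 6 higher for genotype in neurons, 0 for genotype in cortex and for the interaction, and 0 to 3 for litter in cortex. For litter in neurons it gave 5 without control replicate 2 or deleted replicate 1 and 17 without deleted replicate 4. Without both libraries of litter 3, 0 genes were called for genotype in cortex, and 18 of the estimates were above 0 instead of 13. Without its *Phf6*-/Y library alone, 21 were. Without litters 3 and 7, 18 genes were higher and 9 lower between deleted neurons and cortices.

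*Fos*, *Egr2*, *Egr3*, *Fosb*, *Klf2* and *Bdnf* were at few reads in at least 1 tissue, which limits the precision of their fold changes. The sample labels name individual mice, and tissue, culture, transgene and, among deleted samples, the type of deletion changed together.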
